A study of Mus musculus with 9 samples.

Results

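Gene expression in sorted mammary epithelial cells of a p53-null genotype was compared with that in wild-type cells, in 3 libraries each. The p53-null cells came from Trp53L/L;R26Y female mice, in which both copies of Trp53 are flanked by loxP sites, and the wild-type (WT) cells from R26Y females, which carry the Rosa26-Stop-YFP reporter alone. Mice of both genotypes had a mixed genetic background and received the adenovirus Ad-K8-Cre into the mammary ducts, so the WT cells had also been exposed to virus and Cre. Their YFP+ cells were collected 1 month later. The keratin 8 promoter aims Cre at luminal cells, and YFP marks a cell in which Cre acted, not one in which both Trp53 alleles were shown to be lost. The sources used here give neither the age of the mice nor whether each library came from a separate animal, so p-values reflect the spread between libraries, which may be technical. The remaining genotype of the series, Trp53L/L;Brca1L/L;R26Y, was not compared here. Its libraries entered the estimate of that spread, the filter for tested genes and the alternative normalizations.

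A gene counted as well measured when it reached 5 FPKM (a fragment count divided by transcript length and sequencing depth) in all 3 libraries of at least one genotype. This held for 3571 of 23951 gene rows. Of these, 1541 reached the threshold in all 6 libraries, 1816 on the p53-null side only and 214 on the WT side only. The members nearest the threshold were Gtf3c2, Phf3 and Wasl at 5.001 to 5.002 FPKM in the lowest library of their better side, while Mef2a at 4.98 and Alkbh5 at 4.99 lay just outside. A gene that qualified through one side had to be lower on the other, so differences in those 2 classes are described here without being read as support for a direction, and most of what follows rests on the 1541 genes measured on both sides.

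The protein p53 is a transcription factor held at a low level by constant proteolysis in unstressed cells and stabilised by DNA damage and other stress. It then switches on genes for cell cycle arrest, apoptosis and repair, and it is also known to restrain protein synthesis and to alter metabolism. Luminal cells line the ducts and alveoli of the mammary gland and divide into hormone-sensing cells and progenitors of the milk-secreting lineage.

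The deposited values gave no read depth. Sums of FPKM per library lay between 359976 and 433880 over all 9 libraries, and genes at 1 FPKM or more numbered 4839, 7320 and 6105 in the WT libraries against 6286, 9146 and 9767 in the p53-null libraries. The 100 most abundant genes took 44.2%, 41.1% and 43.8% of all FPKM in WT cells, compared with 38.5%, 37.3% and 37.3% in p53-null. Across all 9503 genes tested the median log2 change was 0.58, and with quantile normalization it was -0.04. Among genes measured on both sides it was 0.09. The part of these differences between libraries in the results below was not tested.

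WT replicate 1 stood apart from the other WT libraries. Of 312 genes at 50 FPKM or more in WT replicate 2 and under 20% of that in replicate 1, 88.5% lay between 5% and 15% of the replicate 2 value, with a median of 8.48%. In the 29 other ordered pairs of libraries that share ran from 18.5% to 58.3%. These limits were chosen after the values were seen. WT replicate 1 lay at 5% to 15% of WT replicate 2 for 1144 of the 1816 genes well measured on the p53-null side only. On the WT side only this held for 13 of 214. A WT library so low can itself keep a gene from qualifying on the WT side. Among the 1541 genes measured on both sides, 193 had WT replicate 1 in that range. They included 14 of the 110 genes (7.14% of the class) that were higher in every p53-null library than in any WT library, or 12.7%. Among the 1314 genes that overlapped the share was much the same, 13.6%. It was 0 of the 117 genes (7.59%) that were lower. That 0 says little, since a WT library so low leaves little room for p53-null values beneath it. Genes named below with WT replicate 1 in the 5% to 15% range, on both sides or not, carry that percentage. Gtf3c2 (8.29%), Mef2a (7.12%), Alkbh5 (9.65%) and Wasl (8.32%) above also lay in that range. Values without WT replicate 1 are given for some of these genes.

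**Figure D1:**
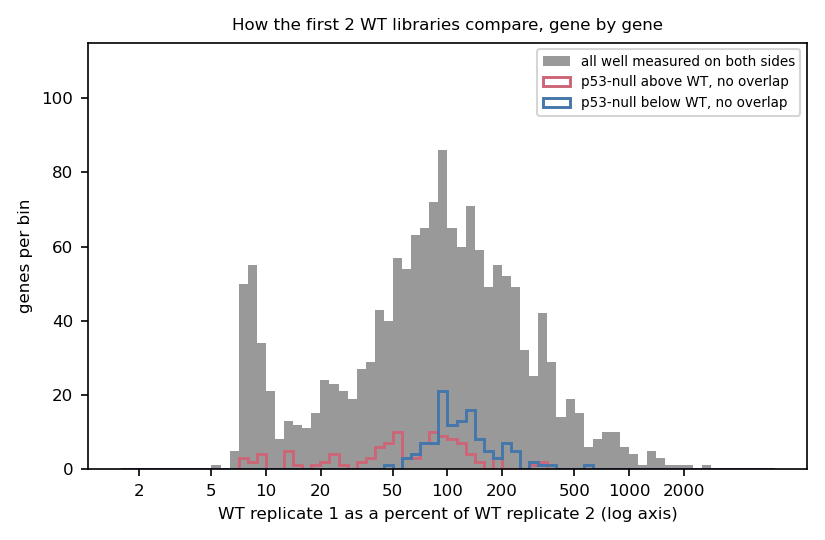
Histogram of WT replicate 1 as a percent of WT replicate 2 (log axis) for the 1541 genes well measured on both sides, in grey, with outlines for the genes whose groups did not overlap. A separate peak stands near 8.48%. None of the genes lower in p53-null lies in it, as a WT library so low leaves little room beneath it.

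Trp53 itself was not well measured. It stood at 2.77, 25.5 and 1.35 FPKM in WT compared with 55.7, 0.858 and 20.3 where the label is p53-null, and the groups overlapped, with WT replicate 1 at 10.8% of replicate 2. Reads outside the deleted exons can still be counted for a recombined gene, so the genotype labels could not be checked this way. Brca1 was listed at 0 in all 6 libraries except p53-null replicate 1, at 0.0056 FPKM.

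The luminal identity of the sorted cells was visible in their keratins. Krt18, the partner keratin of Krt8, stood at 3400, 3755 and 2621 FPKM in WT cells, compared with 1460, 6009 and 3543 in p53-null. Krt8 ran from 1605 to 2442 FPKM in WT and from 1136 to 4385 in p53-null, and the epithelial adhesion gene Epcam from 196.4 to 507.1 and from 121.0 to 577.3. For all 3 the p53-null libraries spanned the WT libraries, with replicate 1 at the bottom. None of the 9 luminal epithelial genes and none of the 10 basal and myoepithelial genes measured on both sides separated the genotypes. Krt14, a basal keratin, stood at 120.8, 168.1 and 100.4 FPKM in WT cells, compared with 409.6, 104.4 and 522.6 in p53-null, and the smooth muscle actin gene Acta2 at 29.2, 158.8 and 130.8 against 475.4, 62.2 and 205.8.

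Transcripts of other cell types were present in both genotypes. The summed level of 30 immune cell marker genes in the table was 7182, 3090 and 8653 FPKM in WT cells, compared with 3969, 5079 and 7807 in p53-null, of which the most abundant over the 6 libraries were Lyz2 and Cd74. Lyz2, a lysozyme of macrophages and other myeloid cells, stood at 2119, 592.4 and 3223 FPKM in WT cells, compared with 503.4, 1583 and 945.4 in p53-null, and Cd74, the MHC class II invariant chain, at 1259, 858.6 and 1758 against 998.7, 1134 and 2084. Of the 27 immune markers tested, 5 were higher without overlap and 0 lower, and the smallest limma adjusted p was 0.112. Cd209g and Cd209f had the smallest p of the list, with log2 changes of 4.39 and 4.07. Over all 9503 tested genes 14.1% were higher without overlap and 2.16% lower. Of the 15 immune markers well measured on both sides, 0 were higher and 0 lower. Of these 15, 10 had a log2 change below 0, and the median was -0.19. The leukocyte antigen gene Ptprc ran from 0.338 to 14.5 FPKM in WT and from 1.59 to 13.5 in p53-null, with WT replicate 1 at 9.05% of replicate 2. Endothelial markers, 20 in all, summed to 275.4, 19.6 and 295.3 FPKM in WT cells, compared with 967.8, 86.5 and 232.5 in p53-null, and their defining gene Pecam1 stood at 0, 0.0338 and 28.2 against 33.6, 1.25 and 12.8. Of the 16 endothelial markers tested, 4 were higher without overlap and 0 lower, and the median log2 change was 1.39. Egfl7 had the smallest p of that list, with a log2 change of 4.56 (limma adjusted p = 0.112). The 1 endothelial marker well measured on both sides overlapped. The defining adipocyte genes Adipoq and Plin1 were listed at 0 in all 6 libraries, but the 14 adipocyte markers summed to 1104, 163.4 and 1633 FPKM in WT cells, compared with 5342, 663.8 and 907.3 in p53-null. Fabp4, which other cells also express, made up most of this and reached 5145 FPKM in p53-null replicate 1. Car3, a carbonic anhydrase abundant in adipocytes and muscle, had the smallest p of that list, at 9.49, 2.26 and 0 FPKM in WT cells, compared with 137.0, 49.3 and 54.7 in p53-null (log2 change 4.49 ± 0.96 (SE) by limma, adjusted p = 0.112). Cfd, or adipsin, overlapped, at 1.78, 22.9 and 57.2 against 0, 16.5 and 2.43, with WT replicate 1 at 7.77% of replicate 2. The 20 fibroblast markers summed to 496.2, 200.7 and 226.5 FPKM in WT cells, compared with 313.7, 257.9 and 259.6 in p53-null. Pdgfra, a defining receptor of fibroblasts, was listed at 0 except at 0.0216 FPKM in WT replicate 2. The collagen gene Col1a1 stood at 0, 0.0191 and 0.0082 against 3.14, 7.31 and 4.29 (2.49 ± 0.98 by limma, adjusted p = 0.335). Col3a1, another collagen gene, overlapped, at 3.349, 11.69 and 19.8 FPKM in WT cells, compared with 12.49, 9.938 and 9.643 in p53-null. Of the 13 fibroblast markers tested, 2 were higher without overlap and 0 lower. The 2 well measured on both sides overlapped, with log2 changes below 0 and a median of -0.23. In such bulk samples fewer cells of a type and less RNA per cell cannot be told apart, and the part of these other cells in the results was not tested.

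A single gene passed. Mrpl42, which encodes a protein of the large mitochondrial ribosomal subunit, was listed at 0 throughout WT, while p53-null cells had 115.7, 61.04 and 93.4 FPKM (log2 change 6.46 ± 0.81 (SE) by limma, adjusted p = 0.00427). It was 1 of 9503 genes tested, or 0.0105%. The call was lost when p53-null replicate 1 (adjusted p = 0.0815) or replicate 3 (0.115) was left out of the limma fit. A fit of the 6 libraries alone (0.113) and a covariate for the number of genes detected (0.0938) also ended it. No other difference named below passed, and each is given as values, not as a change. At an unadjusted limma p under 0.05 there were 1022 higher genes, or 10.8% of those tested, and 94 lower genes, or 0.989%.

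Among the genes well measured on the p53-null side only, those with the smallest p after Mrpl42 were Polr1c, Qdpr, Lgals9, 2210013O21Rik, Stoml2, Lsp1 and Rarres2, at limma adjusted p between 0.110 and 0.112. Stoml2, a mitochondrial inner membrane scaffold, stood at 0, 0.0511 and 0.0552 FPKM in WT cells, compared with 30.2, 20.1 and 19.6 in p53-null. Lsp1, an actin-binding protein best known from leukocytes, was listed at 0 throughout WT, while p53-null cells had 14.8, 26.4 and 26.0 FPKM. Rarres2 encodes the chemoattractant chemerin and stood at 0, 0.137 and 0 FPKM against 58.6, 43.3 and 12.4. In each of these genes the WT libraries were at or near 0 while every p53-null library was well above it. Lgals9 was the exception in WT replicate 2, at 5.49 FPKM.

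Functions across this class were mixed. Eif4a3, a core protein of the exon junction complex, stood at 2.51, 33.2 and 4.09 FPKM in WT cells, compared with 136.4, 119.2 and 113.9 in p53-null, with WT replicate 1 at 7.54% of replicate 2. Eif2b2, a subunit of the exchange factor for the initiation factor eIF2, stood at 0.104, 1.51 and 0 against 14.4, 30.0 and 13.8, with WT replicate 1 at 6.90% of replicate 2, and Mrpl2, another large subunit protein of the mitochondrial ribosome, at 0.0588, 0 and 0.0460 against 21.01, 19.1 and 16.1. The glycolytic enzymes Pfkp, the platelet-type phosphofructokinase, and Hk1, hexokinase, showed the same layout. Pfkp stood at 0.0371, 0.0224 and 1.08 FPKM in WT cells, compared with 43.8, 11.4 and 19.9 in p53-null, and Hk1 at 0.413, 4.63 and 0.898 against 28.8, 29.8 and 19.1, with WT replicate 1 at 8.93% of replicate 2. Rab13, a small GTPase of junctional traffic, ran from 0 to 0.0548 FPKM in WT and from 10.5 to 19.1 in p53-null, and the endosomal SNARE gene Stx7 from 0.103 to 2.60 and from 16.6 to 45.4, with WT replicate 1 at 7.27% of replicate 2. Klf5, an epithelial transcription factor, stood at 4.37, 51.8 and 4.22 FPKM against 84.2, 83.7 and 104.9, with WT replicate 1 at 8.43% of replicate 2. WT replicate 2 was the high WT library for Eif4a3, Hk1 and Klf5.

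On the WT side only, 214 genes qualified, and here too groups without overlap could lie in only 1 direction. The groups overlapped for 169 of these genes. Ang4, a secreted ribonuclease of the angiogenin family, stood at 20.8, 6.01 and 6.55 FPKM in WT cells, compared with 0.885, 0 and 0 in p53-null, and Ang3 of the same family at 73.3, 10.7 and 16.95 against 0.0012, 0 and 0. The members of this family are close copies, so the split of fragments among them is uncertain. Fam25c stood at 295.1, 373.9 and 435.7 FPKM in WT cells, compared with 0.224, 153.8 and 40.4 in p53-null. Cox6b2, a testis-type subunit of cytochrome c oxidase, stood at 371.9, 36.2 and 55.6 against 0.700, 7.13 and 4.21. Below these in rank came H2-Ea-ps, a class II pseudogene, Cdadc1, Hint3 and the Rap exchange factor Rapgef6, each with p53-null replicate 1 as its lowest library. H2-Ea-ps stood at 42.9, 20.2 and 32.9 FPKM in WT cells, compared with 0, 8.33 and 6.80 in p53-null, and Rapgef6 at 11.7, 11.6 and 27.7 against 0.210, 2.27 and 2.32.

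**Figure D2:**
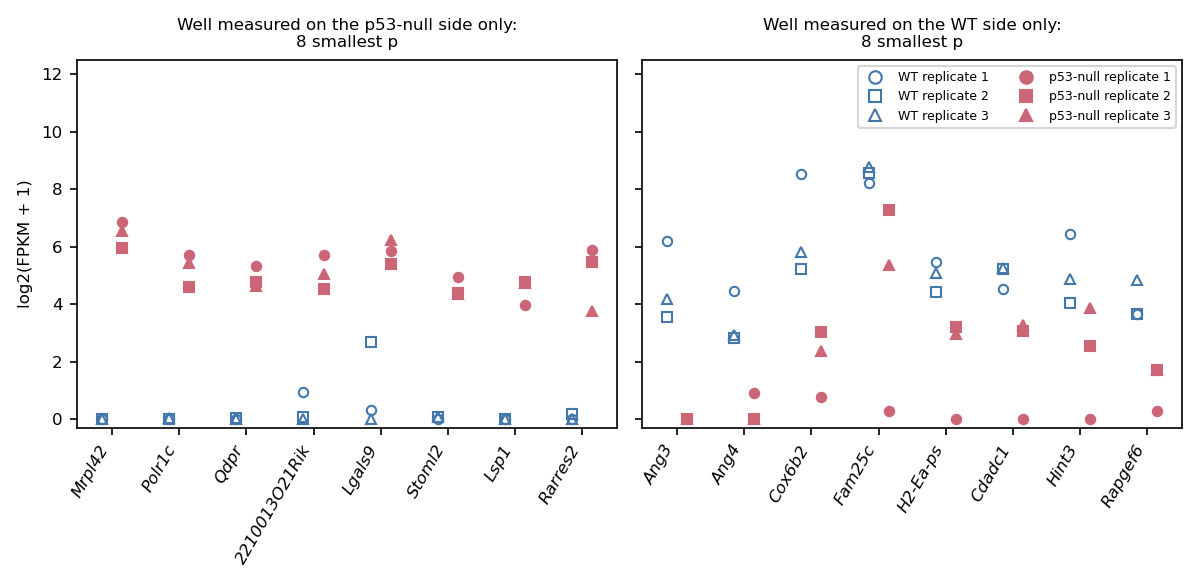
Values of log2(FPKM + 1) in each WT (open) and p53-null (filled) library for the 8 genes with the smallest p in each class that was well measured on one side only, with 1 symbol shape per replicate number. Mrpl42 is at 0 in every WT library, and p53-null replicate 1 is the lowest library of its genotype for 6 of the 8 genes on the right.

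Of the 1541 genes measured on both sides, 1314 overlapped between genotypes, and the rest were about evenly divided by direction. Every p53-null library was above every WT library for 110 genes (7.14% of the 1541) and below for 117 (7.59%), against 14.1% and 2.16% over all 9503 tested genes. The smallest limma adjusted p in this class was 0.1498. In the unadjusted test 62 genes (4.02%) were higher and 41 (2.66%) lower at p under 0.05. These shares are the background for the gene groups below.

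The genes without overlap differed in transcript length and level between the directions. Transcript lengths came from the GENCODE mouse annotation and existed for 99.6% of these genes. Each was the median over all annotated protein-coding transcripts of a gene, partial ones included, or over all its transcripts where none was coding. It need not be the length of the transcript expressed: Hsp90aa1, for example, was counted at 711 nt. The genes higher without overlap had a median length of 1768.5 nt and the genes lower without overlap 824 nt. Of the 176 genes under 600 nt, 10.2% were lower and 1.14% higher, with a median log2 change of -0.20. Of the 359 genes from 1500 to 2500 nt, 3.34% were lower and 11.4% higher, with a median of 0.28. The median was not steady over length: the 468 genes from 600 to 1000 nt had the highest share lower, 11.5%, and a median of 0.06, and the 245 genes over 2500 nt a median of 0.12, which was -0.06 with quantile normalization. Among the 236 genes whose mean over both genotypes was 256 FPKM or more, 36 were lower and 9 higher. These bins were chosen after the values were seen, and the part of length in the gene groups below was not tested.

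**Figure D3:**
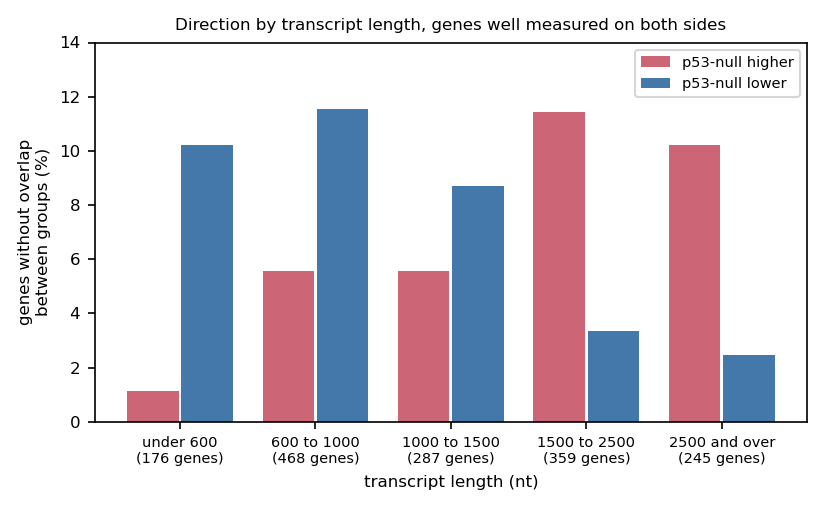
Percent of genes well measured on both sides whose p53-null libraries all lay above (red) or all below (blue) the WT libraries, by transcript length in nt (median of the annotated transcripts of a gene). The share lower is 10.2% in the shortest bin and 2.45% in the longest, and the share higher is 1.14% and 10.2%.

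Ribosomal proteins and translation factors leaned in opposite directions. Cytosolic ribosomal protein genes encode the structural proteins of the ribosome that reads nuclear mRNA. Of 78 measured on both sides, 22 were lower in every p53-null library than in any WT library (28.2%, against 7.59% for the class) and 1 was higher, and 70 had a log2 change below 0. Their median was -0.34, -0.21 with quantile normalization and -0.47 without WT replicate 1. It ran from -0.47 without p53-null replicate 1 to -0.18 without p53-null replicate 2. As a share of all FPKM these genes made up 15.8%, 17.6% and 19.4% in WT and 16.1%, 11.8% and 13.3% in p53-null, so p53-null replicate 1 lay within the WT range. At unadjusted p under 0.05, 9 were lower and 0 higher, and no member passed.

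Rpl18, a protein of the large subunit, stood at 1429, 1327 and 912.3 FPKM in WT cells, compared with 575.7, 592.1 and 626.6 in p53-null (log2 change -1.005 ± 0.27 (SE) by limma, adjusted p = 0.177). The p53-null libraries lay close together and the lowest WT library was well above them. Rps26, of the small subunit, stood at 1055, 1247 and 1062 FPKM against 721.8, 423.5 and 599.9 (-0.98 ± 0.32 by limma, adjusted p = 0.239). Rps28 and Rplp2 were chosen after their values were seen. Rps28 stood at 987.1, 1369.6 and 1430.5 FPKM against 956.8, 482.5 and 790.4, and Rplp2 at 1779, 1644 and 1353.5 against 1218, 726.6 and 1055. The most abundant members, Rpl35 and Rpl38, overlapped between genotypes, since p53-null replicate 1 at 3733 and 3137 FPKM lay among the WT values. Rpl34 went the other way, at 30.8, 30.2 and 45.1 FPKM against 95.3, 58.2 and 53.8. Ribosomal protein genes have many near-identical pseudogenes, and the sources used here do not say how fragments were shared among them. They are also short, with a median transcript length of 704 nt. Without them the genes under 600 nt were still lower in 9.27% and higher in 1.32%, with a median of -0.13.

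Translation factors bring mRNA and tRNA to the ribosome, and their list also held inhibitors such as Eif4ebp1. The genes of this list leaned the other way. Of 32 measured on both sides, 8 were higher without overlap (25%, against 7.14%) and 1 lower, and the median log2 change was 0.44, with 0.26 without WT replicate 1. Eif4ebp1 encodes 4E-BP1, the repressor of the cap-binding protein eIF4E, and stood at 5.44, 11.7 and 48.7 FPKM in WT cells, compared with 98.9, 58.9 and 95.4 in p53-null (2.38 ± 0.75 (SE) by limma, adjusted p = 0.217). Eif6, an anti-association factor of the large subunit, and the helicase gene Eif4a1 were chosen after their values were seen. Eif6 stood at 37.3, 90.3 and 53.5 FPKM against 135.6, 114.8 and 179.0 and Eif4a1 at 203.8, 250.2 and 237.2 against 499.6, 289.3 and 360.3. The 1 lower factor was Eif3k, a small subunit of eIF3, at 367.9, 195.0 and 213.6 FPKM against 140.0, 150.7 and 150.6. The most abundant members did not separate the genotypes: Tpt1, the translationally controlled tumor protein, ran from 1308 to 1827 FPKM in WT and from 1126 to 1665 in p53-null, and the elongation factor Eef1a1 from 1047 to 1247 and from 946.2 to 1088.

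Of 14 mitochondrial ribosomal proteins measured on both sides, 2 were lower and 0 higher. Mrpl30 stood at 334.4, 57.5 and 144.6 FPKM in WT cells, compared with 9.22, 35.8 and 38.9 in p53-null (-2.52 ± 0.73 (SE) by limma, adjusted p = 0.187), and its WT libraries were themselves spread widely. Mrps6 stood at 142.5, 192.2 and 118.4 against 89.2, 106.0 and 76.1. Mrpl42, the 1 called gene, is not among these 14, since it was well measured on the p53-null side only.

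**Figure D4:**
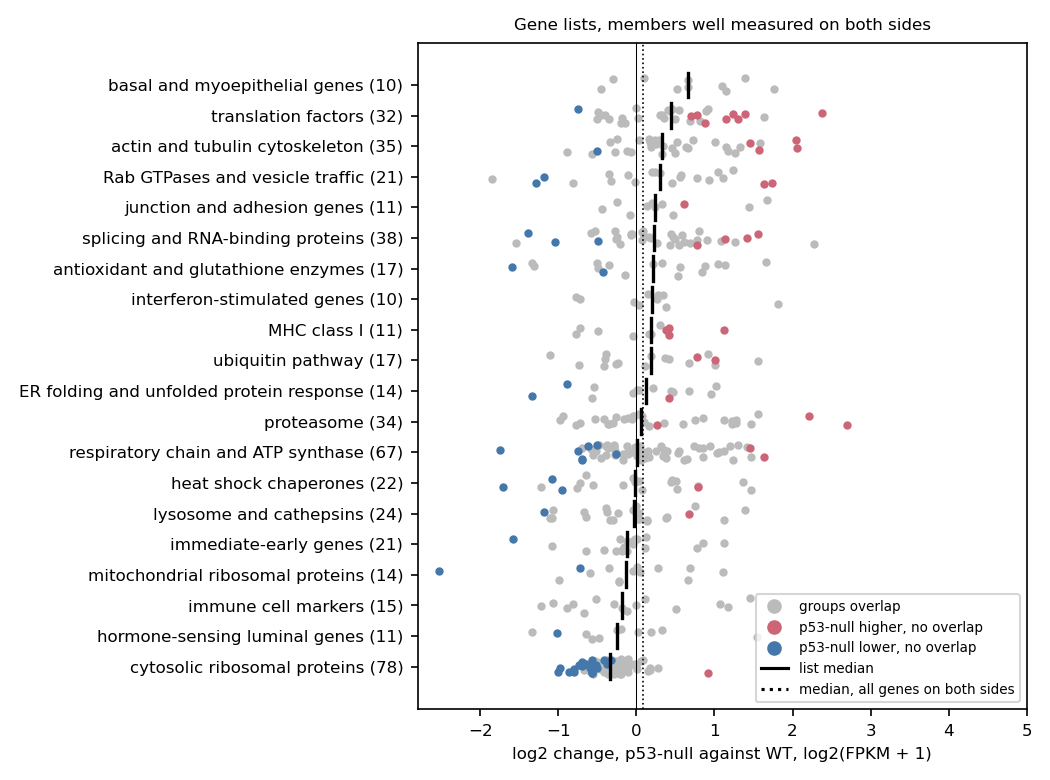
Log2 change between p53-null and WT of each gene well measured on both sides, in lists with at least 10 such genes, with the number of genes in brackets. Black bars are list medians, from -0.34 for cytosolic ribosomal proteins to 0.66 for basal and myoepithelial genes, and the dotted line is the median of all 1541 genes, at 0.09.

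Of the chaperones, 3 stood lower, 2 of the mitochondrion and 1 of the cytosol. Hspe1 encodes the lid (Hsp10) of the mitochondrial chaperonin and Hspd1 its barrel (Hsp60). Hspe1 had the largest negative statistic of the class, at 822.4, 1136 and 1126 FPKM in WT cells, compared with 684.9, 170.2 and 254.7 in p53-null (-1.71 ± 0.43 (SE) by limma, adjusted p = 0.1498). Its p53-null replicate 1 was much nearer to WT than replicates 2 and 3. Hspd1, named after its values were seen, stood at 110.1, 169.0 and 159.0 against 75.5, 82.1 and 64.3 (-0.95 ± 0.49 by limma, adjusted p = 0.459). Hsp90aa1, the stress-inducible cytosolic Hsp90, stood at 902.5, 940.1 and 687.0 FPKM against 576.0, 317.1 and 337.2 (-1.08 ± 0.32 by limma, adjusted p = 0.196).

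Hspe1 and Hspd1 are neighbours that are read in opposite directions from one region, and promoter windows are shown because the 2 genes share it. Hspd1 has 2 windows in the RefSeq table, for different transcript starts. The one that overlaps the Hspe1 window is shown, and the other, at chr1:55088244-55088493, does not hold the motif. Both windows shown are the 250 bases before a RefSeq transcript start (GRCm38.p6), and they have 215 bases in common, on opposite strands. Capitals mark the palindromic heat shock element core GAANNTTC, searched on both strands at once because it is its own reverse complement, and chosen after the values were seen. It begins 84 bases before the Hspe1 start and 139 bases before the Hspd1 start, and it is the same 8 bases.
Hspe1 (chr1:55087898-55088147, plus strand): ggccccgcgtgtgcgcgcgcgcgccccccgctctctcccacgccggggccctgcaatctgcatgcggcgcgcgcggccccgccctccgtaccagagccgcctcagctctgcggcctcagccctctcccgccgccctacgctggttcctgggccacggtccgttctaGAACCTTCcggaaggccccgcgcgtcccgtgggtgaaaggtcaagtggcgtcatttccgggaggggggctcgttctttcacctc
Hspd1 (chr1:55087933-55088182, minus strand): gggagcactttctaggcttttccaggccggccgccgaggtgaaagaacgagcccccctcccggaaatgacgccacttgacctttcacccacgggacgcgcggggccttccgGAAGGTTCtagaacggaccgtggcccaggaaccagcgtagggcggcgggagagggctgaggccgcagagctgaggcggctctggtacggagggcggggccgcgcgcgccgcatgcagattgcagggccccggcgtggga

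The core occurred in 2199 of 32851 RefSeq mouse promoter windows (6.69%) and in 7 of the 26 windows of tested heat shock genes (26.9%), where Hspe1 and Hspd1 count the same 8 bases. By gene, it occurred in a window of 2088 of 27025 symbols (7.73%) and of 7 of the 18 tested heat shock genes that had one (38.9%). Log2 changes of these 7 ran from -1.71 to 0.78, and 2 of them, Hspe1 and Hspd1, were lower without overlap. Those of the 10 genes without the core that were measured on both sides ran from -1.22 to 1.46, with 0 lower without overlap. Hsp90aa1 had no window in the table and is in neither group. Hspa1b, an inducible Hsp70 with the core 104 bases before its start, stood at 415.15, 470.1 and 377.4 FPKM in WT cells, compared with 444.95, 255.9 and 166.8 in p53-null, so that replicate 1 again lay among the WT libraries. A match is a description of letters and not evidence of binding. Of all 22 heat shock genes measured on both sides, 3 were lower and 1 higher, with a median of -0.02. Hspb1 overlapped, at 1214.9 to 2019 FPKM in WT cells, compared with 839.0 to 1354 in p53-null, and Hspa8, the constitutive Hsp70, ran from 630.5 to 794.2 and from 676.4 to 1704. Hspa9, the mitochondrial Hsp70, was the 1 higher member, at 50.6, 34.0 and 40.4 FPKM against 73.2, 80.1 and 63.2.

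Other stress genes gave few separated groups. Sod1, the copper-zinc superoxide dismutase of the cytosol, stood at 178.3, 209.9 and 268.4 FPKM in WT cells, compared with 55.4, 91.2 and 69.9 in p53-null (-1.60 ± 0.49 (SE) by limma, adjusted p = 0.202). The genotypes were far apart for Sod1, its lowest WT library being well above its highest p53-null library. Thioredoxin, Txn1, was the other lower member among 17 antioxidant genes, at 285.2, 309.0 and 336.1 against 227.2, 219.8 and 245.3, and 0 were higher. Of 21 immediate-early genes, which stimulation or tissue handling switches on within minutes, Fosb was lower without overlap, at 97.6, 103.9 and 77.1 FPKM against 30.5, 63.7 and 13.6, and 0 were higher. The stress factor Atf3 overlapped.

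The largest positive statistic among the genes measured on both sides was that of Psma6. Psma6 and Psma5 encode alpha subunits of the proteasome core. Psma6 stood at 12.2, 54.5 and 7.40 FPKM in WT cells, compared with 130.5, 109.6 and 115.9 in p53-null (2.70 ± 0.69 (SE) by limma, adjusted p = 0.152). Psma5 stood at 6.42, 83.5 and 37.1 against 151.6, 133.6 and 113.8 (2.21 ± 0.74 by limma, adjusted p = 0.244), with WT replicate 1 at 7.69% of replicate 2 and a log2 change of 1.23 without that library. In both genes the p53-null libraries lay within a narrow range and the WT libraries were scattered. Most proteasome genes did not follow: of 34 measured on both sides 3 were higher (8.82%, against 7.14% for the class) and 0 lower, with a median of 0.06. Of all 48 tested, 8 were higher without overlap and 0 lower, against 14.1% and 2.16% over all tested genes. Ubb, a polyubiquitin gene, stood at 1104, 1432 and 1365 FPKM against 2923, 1921 and 1954 (0.78 ± 0.25 by limma, adjusted p = 0.229), and of 17 ubiquitin pathway genes 2 were higher and 0 lower.

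Genes of endocytosis and membrane traffic appeared on both sides of the ranking. Ap2s1, the small subunit of the AP-2 clathrin adaptor, stood at 9.85, 9.40 and 45.8 FPKM in WT cells, compared with 105.02, 57.1 and 105.9 in p53-null (2.32 ± 0.68 (SE) by limma, adjusted p = 0.188). Sdcbp encodes syntenin, an adaptor of syndecans, and stood at 23.02, 148.2 and 123.9 against 326.3, 268.0 and 251.3 (1.88 ± 0.58 by limma, adjusted p = 0.206). For both genes the lowest p53-null library was above the highest WT library, and without WT replicate 1 the log2 change of Sdcbp was 1.04. On the other side Sec61b, a subunit of the channel through which proteins enter the endoplasmic reticulum, stood at 309.7, 335.6 and 293.7 FPKM against 131.6, 107.9 and 180.0 (-1.19 ± 0.38 by limma, adjusted p = 0.231). Vamp8, a SNARE of late endosomes named after its values were seen, stood at 346.5, 242.8 and 232.0 against 51.7, 149.5 and 170.2. Of 21 genes on the Rab and vesicle list, 2 were higher and 2 lower. Of the 2 higher genes Rab5a, of early endosomes, stood at 6.14, 26.7 and 28.3 FPKM against 34.3, 63.4 and 75.4. The other, Arf1 of the Golgi, had WT replicate 1 at 9.05% of replicate 2.

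Ppp2ca, the catalytic subunit of protein phosphatase 2A, stood at 45.1, 83.4 and 90.8 FPKM in WT cells, compared with 188.8, 232.1 and 229.9 in p53-null (1.61 ± 0.44 (SE) by limma, adjusted p = 0.179). Its p53-null libraries lay close together and all WT libraries were well below them. Ywhaq and Ywhah encode 14-3-3 theta and eta, which bind phosphorylated proteins. Ywhaq stood at 6.13, 66.2 and 26.9 against 100.9, 142.2 and 116.5, with WT replicate 1 at 9.26% of replicate 2, and Ywhah at 37.2, 73.1 and 26.7 against 145.0, 120.2 and 169.4. Their log2 changes were 2.33 ± 0.72 and 1.76 ± 0.56 (limma adjusted p = 0.207 and 0.221), and that of Ywhaq was 1.47 without WT replicate 1.

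Anxa1, a calcium-dependent membrane-binding protein, stood at 184.5, 674.9 and 648.3 FPKM in WT cells, compared with 865.9, 1739 and 1397 in p53-null (1.57 ± 0.44 (SE) by limma, adjusted p = 0.187), and its log2 change was 0.95 without WT replicate 1. Tpm1, a tropomyosin that coats actin filaments, stood at 158.2, 127.5 and 86.4 against 524.1, 254.6 and 276.8 (1.46 ± 0.45 by limma, adjusted p = 0.210). Tpm4 stood at 7.64, 101.9 and 77.5 FPKM against 172.0, 195.9 and 145.1, with WT replicate 1 at 7.50% of replicate 2, and Anxa3 at 77.2, 73.5 and 7.03 against 187.0, 168.2 and 103.3. Both were named after their values were seen. Of 35 actin and tubulin genes, 4 were higher (11.4%) and 1 lower, with a median of 0.32 that came to 0.12 without WT replicate 1. The lower gene was Actb, cytoplasmic beta-actin, at 744.1, 821.3 and 705.3 FPKM against 363.1, 607.9 and 679.0. Retnla, a secreted protein known from alternatively activated macrophages, had a large statistic although its groups overlapped, at 240.1, 114.7 and 105.0 FPKM against 693.6, 185.3 and 464.2.

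**Figure D5:**
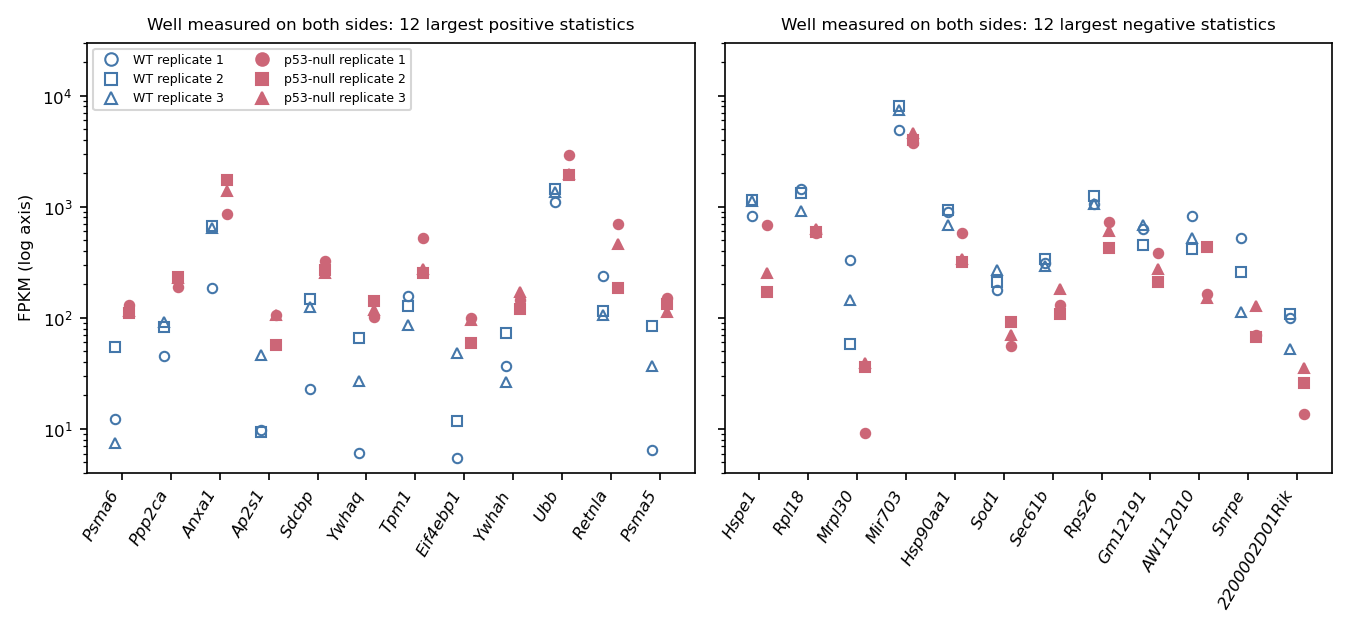
FPKM (log axis) in each WT (open) and p53-null (filled) library for the 12 genes with the largest positive and the 12 with the largest negative moderated statistic among the 1541 genes well measured on both sides, with 1 symbol shape per replicate number. In Psma6 the p53-null libraries sit between 109.6 and 130.5 with all WT libraries below, and in Rpl18 they sit between 575.7 and 626.6 with all WT libraries above.

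Of 67 respiratory chain and ATP synthase subunits measured on both sides, 7 were lower (10.4%) and 2 higher (2.99%), and 34 had a log2 change above 0 against 33 below. The median was 0.01, and ran from -0.26 without WT replicate 1 to 0.26 without WT replicate 2. Cox8a, a small subunit of cytochrome c oxidase, stood at 759.7, 705.3 and 626.7 FPKM in WT cells, compared with 331.1, 428.1 and 492.2 in p53-null, and Ndufa3 of complex I at 359.9, 366.9 and 466.7 against 264.3, 159.3 and 342.8. Ndufb10, also of complex I, stood at 6.41, 71.6 and 83.4 against 129.9, 94.0 and 107.1, with WT replicate 1 at 8.96% of replicate 2 and a log2 change of 0.50 without it. All 3 were named after their values were seen. Of 8 glycolytic genes 1 was higher and 1 lower, 6 had a log2 change above 0 and the median was 0.51, from 0.33 to 0.77 with each library left out. Of 8 genes of the TCA cycle 1 was higher and 0 lower, 6 were above 0 and the median was 0.34, which was 0.01 with quantile normalization.

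Of 38 splicing and RNA-binding genes, 4 were higher and 3 lower. Snrpe, a core protein of the spliceosomal snRNPs, stood at 520.9, 260.2 and 112.9 FPKM in WT cells, compared with 70.3, 67.6 and 127.9 in p53-null, and its groups overlapped. Snrpb, another core protein, stood at 107.1, 85.7 and 81.0 against 257.1, 154.4 and 199.5. Only Snrpb of these Sm ring proteins separated the genotypes.

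Of the genes p53 is known to activate, 8 were measured on both sides, and 2 of these were higher and 0 lower. Log2 changes were above 0 for 7 of the 8 and below 0 for 1. Their median was 0.93, 0.62 with quantile normalization and 0.59 without WT replicate 1. Plk2, a polo-like kinase, stood at 12.01, 90.6 and 70.3 FPKM in WT cells, compared with 128.3, 146.2 and 136.8 in p53-null, with WT replicate 1 at 13.3% of replicate 2 and a log2 change of 1.65 that was 0.77 without it. Cd82, a tetraspanin, stood at 6.57, 69.2 and 41.1 against 101.3, 149.2 and 127.8, with WT replicate 1 at 9.50% of replicate 2 and a log2 change of 2.16 that was 1.21 without it. A further 8 targets qualified through the p53-null side, among them Phlda3, a repressor of Akt signalling, at 0.564, 10.9 and 2.38 FPKM against 66.6, 17.3 and 37.1, and the stress cytokine gene Gdf15 at 0.702, 8.13 and 26.3 against 84.1, 30.9 and 53.8. WT replicate 1 was at 5.18% of replicate 2 for Phlda3 and 8.63% for Gdf15. The limma adjusted p was 0.207 or more throughout the 34 targets tested. Of these 34, 6 were higher without overlap and 1 lower, against 14.1% and 2.16% over all tested genes. The targets printed here are all among those higher in p53-null and do not stand for the list.

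Antigen presentation by MHC class I had 4 of 11 genes higher and 0 lower, by small margins. H2-K1, a heavy chain gene, stood at 453.7, 634.9 and 496.1 FPKM in WT cells, compared with 641.1, 730.8 and 665.6 in p53-null (0.37 ± 0.28 (SE) by limma, adjusted p = 0.618), and Tapbp, the peptide-loading protein tapasin, at 20.3, 38.5 and 27.8 against 49.7, 63.8 and 74.1. B2m, the shared light chain, overlapped, at 1731 to 2337 FPKM in WT cells, compared with 1745 to 3267 in p53-null. Heavy chain genes are close copies of each other, so their split is uncertain. Among 11 hormone-sensing luminal genes, Wnt4, a paracrine signal downstream of progesterone, was lower at 38.6, 25.7 and 15.1 FPKM against 9.58, 11.97 and 13.7, and 0 were higher. Among 8 luminal progenitor genes 0 separated. Wfdc18, a secreted antiprotease-like protein, ran from 17.8 to 245.5 FPKM in WT and from 178.5 to 1388 in p53-null, with WT replicate 1 at 7.27% of replicate 2.

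The other gene lists held few separated genes. Of 24 lysosomal genes 1 was higher and 1 lower, the latter being Atp6v0b of the proton pump, with a mean of 326.5 FPKM in WT and 131.0 in p53-null (log2 change -1.19 ± 0.49 (SE) by limma, adjusted p = 0.358). Of 14 folding genes of the endoplasmic reticulum 1 was higher, the lectin chaperone gene Calr, and 2 were lower, Hsp90b1 and Manf. Cxcl16, a chemokine that also exists as a membrane-bound form, was the 1 gene of 7 on the NF-kB list that separated, at 8.69, 42.4 and 20.2 FPKM in WT cells, compared with 68.9, 85.7 and 79.0 in p53-null. Of 7 RNA polymerase subunits Polr2f was lower and 0 were higher. Among 10 interferon-stimulated genes and 5 cell cycle genes measured on both sides, 0 separated the genotypes. The replication clamp gene Pcna had a mean of 84.1 FPKM in WT and 78.1 in p53-null. No member of the homologous recombination list was measured on both sides, and the smallest limma adjusted p among its 19 tested genes was 0.375.

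The most abundant of the 12 genes with the largest negative statistics was listed as Mir703. It stood at 4859, 7979 and 7383 FPKM in WT cells, compared with 3716, 3955 and 4639 in p53-null (-0.69 ± 0.20 (SE) by limma, adjusted p = 0.187), and its groups did not overlap. Libraries of polyadenylated RNA do not capture mature miRNAs, so this row counts longer fragments that were assigned to the hairpin's locus. The sources used here do not say how fragments that match several places were assigned. Whether these arose at that locus was not tested. The mature sequence that the name refers to is shown to tell the locus from its product, with the seed (bases 2 to 8) in capitals, from RefSeq (GRCm38.p6).
mmu-miR-703 (chr5:98475616-98475636, minus strand): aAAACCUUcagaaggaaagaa
Besides genes described above, that ranking held 3 rows with less known products. Gm12191 stood at 625.03, 455.04 and 677.1 FPKM in WT cells, compared with 384.3, 211.1 and 272.3 in p53-null, 2200002D01Rik at 99.1, 108.8 and 52.9 against 13.6, 25.7 and 35.1, and AW112010 at 819.6, 415.2 and 524.8 against 164.0, 437.9 and 150.7. Only AW112010 of these 3 overlapped, through p53-null replicate 2.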

How the data were processed

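RNA of sorted mammary epithelial cells was sequenced in 9 libraries. Per the labels' protocols, RNA was taken with Trizol and libraries were made with the SMARTer v4 low-input mRNA kit. The values the authors deposited are FPKM, 1 table of 24043 rows. The unit is not named in the header and was inferred from the values. Per the submitters' processing notes the build was mm9. The sources used here do not give the aligner, quantifier or annotation. The 92 spike-in rows were left out, and 27 row names that read as dates were fitted but not named. Symbols matched a mouse gene in 99.4% of rows.

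Genes that reached 1 FPKM in 3 or more libraries were fitted as log2(FPKM + 1) with limma 3.58.1 (R 4.3.3, intensity trend, robust moderation), 1 coefficient per genotype over all 9 libraries, with 6 residual degrees of freedom. This scale understates changes of low genes. Adjusted p-values are Benjamini-Hochberg over 9503 genes, called at 0.05. Errors are limma standard errors, n = 3 libraries per genotype. An exact 0 can be a failed estimate and is written as listed at 0. The fit was tested on simulated data.

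The members and the 44 gene lists were chosen with earlier results of these data known. Named genes were Trp53, Brca1, called genes, the 12 largest positive and negative statistics among genes measured on both sides, 8 per side by smallest p among the others, and up to 4 per list (2 by smallest p, 2 by level). Others are said to be named after their values were seen. Further genes in the paragraphs on translation, chaperones, stress, traffic, the cytoskeleton, RNA processing, the other lists, p53 targets and antigen presentation that no ranking brought up were also chosen after their values were seen. Motif and miRNA sequences are RefSeq's for GRCm38.p6, and no coordinates were carried between builds. Alternatives were other normalizations, filters, pseudocounts and moderation, a replicate block, a covariate, the 6 libraries alone and each library left out. Subtracting the share of WT replicate 2 from WT replicate 1, and leaving a library out of the counts without overlap, were added after the data were seen. Same-numbered libraries did not deviate together (correlations of 0.02, 0.06 and 0.00), so the numbers were not used as pairs.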

Additional observations from a re-analysis of the deposited data

How the results depend on the processing

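The count of called genes was 1. It was 0 with the 6 libraries alone and with a covariate for the number of genes detected, 140 when only well-measured genes were fitted, 17 with a pseudocount of 0.1 and 42 without trend or robust moderation, and ran from 0 to 8 with each library left out. The first of these filters used the groups compared. With the replicate block it was 1, and the block changed no call of a named gene.

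Of all well-measured genes, 835 did not overlap between genotypes. Of the 1541 on both sides, 110 were higher and 117 lower. With quantile normalization this class grew to 2057, with 169 higher and 126 lower. With each library left out, which leaves fewer values to overlap and a class of 1550 to 2236 genes, the 3 counts ran from 1103 to 1621, 140 to 317 and 156 to 286.

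Of 1779 repeats for 112 named genes, 43 brought a gene past the threshold, 4 lost Mrpl42 and 24 changed sign, for Tpt1, Eef1a1, Krt8, Krt18, Epcam, Cd74, Ptprc and Pcna. With the covariate, Tpt1 came to 0.034, Krt8 to -0.38, Epcam to -0.96, Cd74 to -0.11, Ptprc to -0.87 and Pcna to 0.75. With quantile normalization Eef1a1 came to 0.048, Krt18 to 0.020 and Ptprc to -0.15, and with the subtracted share Krt18 came to 0.012 and Pcna to 0.0060. With each library left out in turn, Krt8 ran from -0.059 to 0.92, Krt18 from -0.50 to 0.52, Epcam from -0.26 to 0.87, Cd74 from -0.22 to 0.36, Ptprc from -0.53 to 1.24 and Pcna from -0.39 to 0.52. The cause was not tested. Of 288 repeats for 32 list medians, 21 moved by more than the spread between libraries. Read depth is unknown, so the precision of single low values is too.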
